A study of Homo sapiens with 22 samples.

Results

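The SRSF genes encode serine/arginine-rich splicing factors, and 10 of them (SRSF1, SRSF2, SRSF3, SRSF4, SRSF5, SRSF6, SRSF7, SRSF9, SRSF10 and SRSF11) were followed through a chase of bromouridine-labelled RNA in HEK293T cells. Members were found by matching transcript identifiers to the GENCODE annotation, which gave 110 of the 227264 transcript rows in each library. For each gene the protein-coding transcript with the highest mean count was taken as its principal transcript, and the other annotated types of the gene were described beside it. The assay, BRIC-Seq, labels RNA with bromouridine (BrU), a uridine analogue, and then removes it from the medium. After a chase, labelled RNA is recovered with an anti-BrdU antibody, so that later samples are meant to hold RNA made before the chase. HEK293T is a human embryonic kidney line. Its cells carried a hairpin that served as a control (shControl) or 1 that targets ZNF598 (shZNF598), a ubiquitin ligase that marks ribosomes after they collide. All cells of both kinds were labelled with 150 µM BrU for 24 h and chased for 0, 2, 4, 6 or 10 h (2 libraries each) or 24 h (1 library each), which gave 22 libraries. The labels do not say whether replicate libraries came from separate cultures, so the p-values below measure only the spread between these samples.

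SR proteins bind exonic sequences through RNA recognition motifs and recruit or stabilise splicing components through their arginine/serine-rich domains, whose phosphorylation by SRPK and CLK kinases governs their movement between cytoplasm, nuclear speckles and sites of splicing. Many of their genes are autoregulated by splicing: an excess of the protein favours inclusion of a "poison" exon with a premature stop codon or other unproductive splicing, and the resulting transcripts are degraded by nonsense-mediated decay or kept in the nucleus with retained introns. The measurements below therefore cover both the coding transcripts and these other annotated types.

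In 6 of the 10 genes, the most counted transcript annotated as a nonsense-mediated decay target carried its annotated stop codon in an exon with no base in the principal transcript. The stretch of each such exon that ends in the stop is shown, at most 60 bases, because it holds the early stop of the annotated type and lies outside the coding message. The stop codon is in capitals (GRCh38, written 5′ to 3′ on the strand of the gene).
SRSF3-203, chr6:36599821-36599854, plus strand: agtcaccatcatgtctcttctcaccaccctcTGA
SRSF4-205, chr1:29166009-29166064, minus strand: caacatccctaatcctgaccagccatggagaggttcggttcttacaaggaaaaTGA
SRSF6-202, chr20:43459245-43459304, plus strand: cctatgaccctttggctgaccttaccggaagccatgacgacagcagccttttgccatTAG
SRSF7-204, chr2:38749319-38749346, minus strand: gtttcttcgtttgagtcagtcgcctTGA
SRSF9-206, chr12:120464812-120464822, minus strand: aaaactatTAG
SRSF11-212, chr1:70231859-70231908, plus strand: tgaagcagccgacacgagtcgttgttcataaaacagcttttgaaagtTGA
The exons that hold these stops were 456 nt long in SRSF3, 175 nt in SRSF4, 268 nt in SRSF6, 449 nt in SRSF7, 90 nt in SRSF9 and 117 nt in SRSF11. Each stop lay 252 to 697 nt upstream of the last exon junction of its transcript. The values of these transcripts are given with the other types below.

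The level of ZNF598 checked the labels. In shControl libraries of 0-10 h, the ZNF598 transcript had 3.97 to 8.37 CPM (counts scaled to the library total), and in shZNF598 libraries 0.411 to 1.05, so that no library overlapped the other arm. The log2 difference of the mean over 0-10 h was -3.05 (SE 0.09) by the quasi-likelihood test of edgeR (adjusted p = 1.17e-18). Total counts were 52352359 to 96963584 in the 20 libraries of 0-10 h. For the cell markers, CPM were scaled to the library total alone. VIM, KRT8, KRT18 and NEFM were detected, but the kidney marker PAX2 had a mean of only 0.0415 CPM. Of the markers of other cells, CD3E and HBB had no counts, PTPRC, CD79A and ALB had at most 0.0186 CPM, and COL1A1 had 1.0 CPM.

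Levels are CPM after scaling of the libraries by TMM, which holds the bulk of the transcripts at the same level in every library. A slope, in log2 CPM per hour over 0-10 h, is thus relative to the bulk. By the design of the assay, a negative slope marks a transcript lost faster than the bulk. By the same design, a slope above 0 is read as slower loss, not as synthesis, but labelling during the chase was not tested. In a bulk sample, fewer cells that carry a transcript and less of it per cell cannot be told apart. A read was counted in every isoform it overlapped, since in none of 49 pairs of SRSF transcripts in which one lay wholly inside the other did the larger have fewer counts. Rows of 1 gene are therefore not independent measurements.

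At 0 h, levels per kilobase of transcript spanned from 36.5 ± 5.11 CPM per kb for SRSF3 to 6.53 ± 0.347 for SRSF10 in shControl cells (mean ± SD of 2 libraries, as throughout). SRSF3, SRSF1 (35.8 ± 0.0883), SRSF2 (33.7 ± 2.85) and SRSF9 (31.5 ± 1.18) led, and neighbours in this order did not differ beyond their spread. SRSF7, an SR protein with a zinc knuckle that also serves mRNA export, followed with 24.9 ± 2.32 CPM per kb. SRSF6 was at 14.5 ± 0.455, SRSF4 at 12.9 ± 0.66 and SRSF11 at 11.3 ± 1.58, of which the last pair did not differ beyond the spread. SRSF5 (7.08 ± 0.084) and SRSF10 were lowest by the lengths of their principal transcripts. The places of both depend on the isoform taken. The principal transcript of SRSF5 is 2815 nt long and averaged 1434.5 counts. The SRSF5 transcript annotated as canonical is 1496 nt long, averaged 1434.2 counts and also had 19.9 CPM at 0 h. Its level per kilobase is therefore higher. The principal transcript of SRSF10 is 7656 nt long and averaged 3000.9 counts, whereas its protein-coding SRSF10-207 is 1808 nt long and averaged 1740.1. A low level of SRSF5 or SRSF10 therefore cannot be read from this order. All places, also those at 10 h, are those of the principal transcripts alone. After 10 h the order had changed: SRSF9 was highest at 71.2 ± 3.94 CPM per kb, above SRSF1 at 30.4 ± 1.97, while SRSF6 had dropped to 2.59 ± 0.114, close to SRSF10 at 2.26 ± 0.209.

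How fast each labelled SRSF transcript was lost in control cells was asked first. Of the 10 principal transcripts, 8 fell relative to the bulk and SRSF9 rose, while SRSF1 did not pass the test. Among all 79513 transcripts tested, 40.8% fell and 33.5% rose in shControl cells, so that 45.1% of the calls were rises, against 22.5% without a scaling factor. No SRSF slope changed its sign without that factor. SRSF1 then also passed the test (-0.089, adjusted p = 0.00127). The median slope was -0.132 log2 per hour over the 10 genes and -0.018 over all tested transcripts, and it was -0.057 over the principal transcripts of 10715 other protein-coding genes, whose lower quartile was -0.132.

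**Figure D1:**
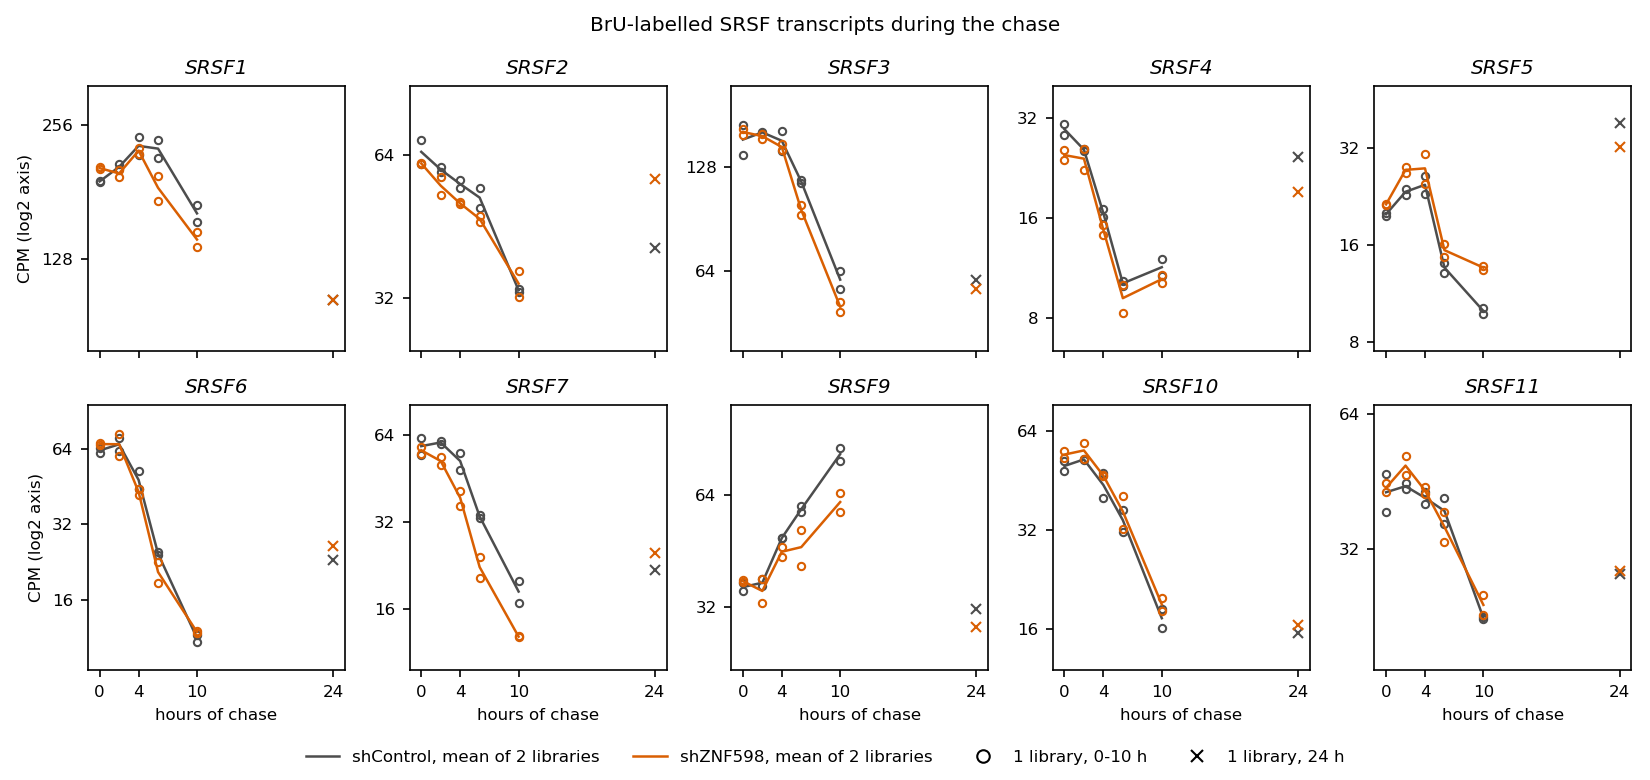
CPM of the principal transcript of each SRSF gene (log2 axis) against hours of chase, for shControl (grey) and shZNF598 (orange). Circles are single libraries of 0-10 h, lines join their means, and crosses are the single 24 h libraries; 9 genes were lower at 10 h than at 0 h in both arms, and SRSF9 was higher.

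SRSF6 was lost fastest. Its transcript (ENST00000244020.5, chromosome 20, 43457896 to 43464243, plus strand, 6 exons) had 64.6 and 61.8 CPM at 0 h in shControl cells, 62.8 and 70.9 at 2 h, 44.3 and 52.1 at 4 h, 24.8 and 24.1 at 6 h, and 11.6 and 10.9 at 10 h. The libraries of 0 and 2 h overlapped, and those of 4, 6 and 10 h then stepped down without overlap. The level at 0 h was 5.59-fold that at 10 h, and the slope of -0.276 (SE 0.028, adjusted p = 2.19e-08) lay at percentile 1.3 of the other genes. Exons of an unnamed gene on the same strand (ENSG00000288000) cover 15% of this transcript.

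SRSF7, SRSF10, SRSF4 and SRSF3 formed the next group, with slopes in shControl cells of -0.182 (SE 0.020), -0.161 (SE 0.021), -0.156 (SE 0.026) and -0.141 (SE 0.023). SRSF10 is an atypical member that represses splicing when dephosphorylated, and SRSF3 is among the smallest SR proteins and takes part in mRNA export. The SEs of these neighbours overlapped. SRSF7 (ENST00000313117.11, chromosome 2, 38743599 to 38751361, minus strand) went from 54.7 and 62.4 CPM at 0 h to 33.1 and 33.8 at 6 h and 16.8 and 20 at 10 h. SRSF3 (ENST00000373715.11, chromosome 6, 36594362 to 36605600, plus strand) had 138.8 to 169.4 CPM in the 6 libraries of 0, 2 and 4 h, then 117.8 and 115.1 at 6 h and 56.8 and 64.4 at 10 h. SRSF10 (ENST00000492112.3, chromosome 1, 23964347 to 23980327, minus strand) went from 51.9 and 48.2 CPM at 0 h to 16.1 and 18.4 at 10 h.

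SRSF4 (ENST00000373795.7, chromosome 1, 29147743 to 29181900, minus strand) had the earliest fall. It had 28.5 and 30.7 CPM at 0 h, 25.5 and 25.9 at 2 h, 16.1 and 17 at 4 h, and 10.0 and 10.4 at 6 h. Each of these steps was without overlap, and at 10 h the libraries stood at 12.1 and 10.7, not below those of 6 h. Over 0-4 h alone, its slope of -0.219 (adjusted p = 0.00124) was the steepest of the 10, and only SRSF2 also fell past the threshold in that window, by -0.067 (adjusted p = 0.0285).

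Most other SRSF transcripts held their level first. In shControl cells 5 genes had their highest mean at 2 h (SRSF3, SRSF6, SRSF7, SRSF10 and SRSF11) and 2 at 4 h (SRSF1 and SRSF5). The means of these 5 at 2 h were only 0.04 to 0.08 log2 above those at 0 h. In shZNF598 cells 5 genes were highest at 0 h, among them SRSF3, SRSF6 and SRSF7, and 2 at 2 h. SRSF5 (ENST00000553521.5, chromosome 14, 69726900 to 69772004, plus strand) had 20.1 and 19.7 CPM at 0 h and 23.0 and 26.1 at 4 h, before 13.1 and 14.1 at 6 h and 10.2 and 9.76 at 10 h. Its slope over 0-10 h was -0.122 (SE 0.029, adjusted p = 0.000795), but the slope was 0.065 over 0-4 h (adjusted p = 0.135), and 0.022 with the 24 h libraries added (adjusted p = 0.449). From the replicate 2 libraries alone it was -0.123 with an adjusted p of 0.0525. SRSF11 (ENST00000370950.7, chromosome 1, 70205724 to 70253052, plus strand) stayed between 36.3 and 47.0 CPM up to 6 h and had 22.4 and 22.6 at 10 h. Its slope was -0.092 (SE 0.018, adjusted p = 0.000144).

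SRSF2, whose protein is a classical marker of nuclear speckles, declined more evenly. Its transcript (ENST00000359995.9, chromosome 17, 76734115 to 76737331, minus strand) had 61.1 and 68.8 CPM at 0 h, 54.4 and 56.7 at 4 h, and 33.4 and 32.9 at 10 h in shControl cells. The slope was -0.093 (SE 0.011, adjusted p = 3.13e-07). The version of this transcript in the files differs from that of the annotation used, and opposite-strand exons of MFSD11 cover 30.1% of it.

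SRSF1, a founding member of the family, was the most counted, with 6020 to 22206 counts per library of 0-10 h. Its transcript (ENST00000258962.5, chromosome 17, 58000919 to 58007246, minus strand) had 191.0 and 191.7 CPM at 0 h, 218.9 and 240.9 at 4 h, 237.4 and 215.9 at 6 h, and 154.8 and 169.7 at 10 h in shControl cells. The libraries of 4 and 6 h were above all of 0 h, and those of 10 h below all of 0 h. The slope over 0-10 h was -0.021 (SE 0.017, adjusted p = 0.253). It was 0.043 over 0-6 h (adjusted p = 0.0348) and -0.053 over 2-10 h (adjusted p = 0.0206), so that the direction depended on the window. Exons of an unnamed gene on the same strand (ENSG00000266086) cover 31.6% of this transcript.

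SRSF9 alone rose relative to the bulk, in both arms. SRSF9 acts in alternative splice site choice, and its transcript (ENST00000229390.8, chromosome 12, 120461672 to 120469748, minus strand, 4 exons) is the shortest principal transcript of the family. In shControl cells it had 35.3 and 37.2 CPM at 0 h, 38 and 36.5 at 2 h, 48.9 and 49.1 at 4 h, 57.5 and 59.5 at 6 h, and 78.9 and 85.3 at 10 h. From 2 to 10 h, every step was upward without overlap between libraries. The level at 10 h was 2.26-fold that at 0 h, and the slope was 0.125 (SE 0.012, adjusted p = 6.63e-09), at percentile 89.5 of the other genes. The rise also held without any scaling factor, at 0.057 (adjusted p = 0.000168). With the 24 h libraries added it was 0.017 (adjusted p = 0.608).

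Opposite-strand exons of GATC cover 42.6% of the principal SRSF9 transcript, and the strand setting of the counting is not given in the sources used here. The most counted GATC transcript fell, with a slope of -0.102 (SE 0.011) in shControl cells. SRSF9-205 and SRSF9-202, which share no exon base with another gene, rose by 0.100 (SE 0.014, adjusted p = 2.52e-06) and 0.084 (SE 0.020, adjusted p = 0.000858) in shControl cells.

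**Figure D2:**
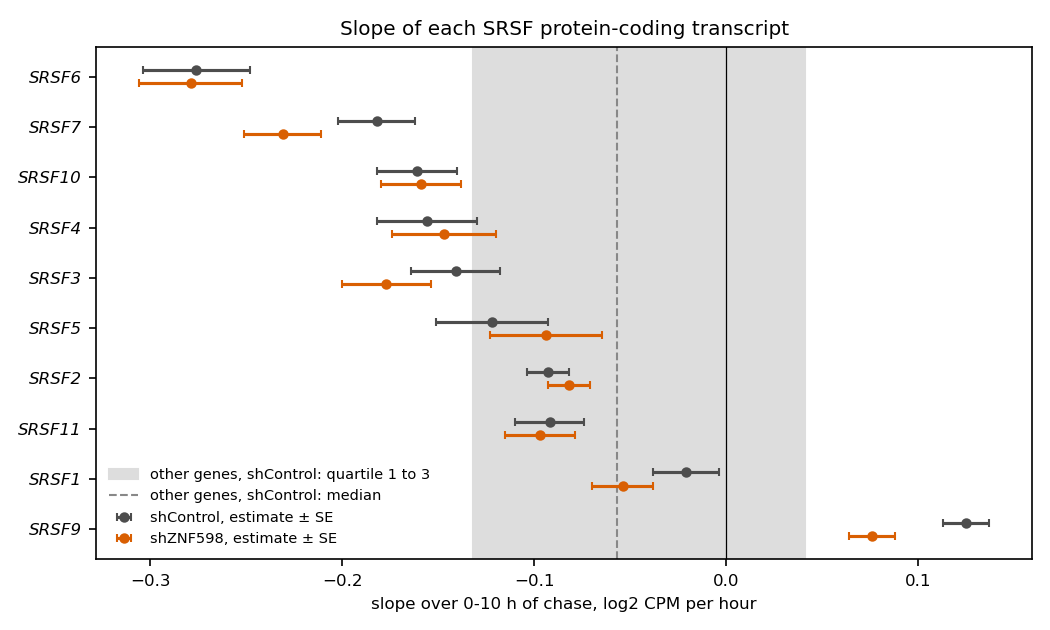
Slope over 0-10 h of chase (log2 CPM per hour, points with SE bars) of each principal SRSF transcript in shControl (grey) and shZNF598 (orange), ordered by the shControl slope. The grey band spans the quartiles and the dashed line the median (-0.057) of the principal transcripts of other genes in shControl; SRSF6 lies farthest to the left and SRSF9 alone to the right of 0.

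In shZNF598 cells, 9 of the 10 principal transcripts fell relative to the bulk and SRSF9 rose, where 38.5% of all tested transcripts fell and 32.7% rose. SRSF6 was again steepest at -0.279 (SE 0.027), with 67.8 and 66.2 CPM at 0 h and 12.0 and 11.8 at 10 h. SRSF7 followed at -0.231 (SE 0.020), then SRSF3 at -0.177 (SE 0.023), SRSF10 at -0.159 (SE 0.021) and SRSF4 at -0.147 (SE 0.027). SRSF11, SRSF5 and SRSF2 had slopes of -0.097 (SE 0.018), -0.094 (SE 0.029) and -0.082 (SE 0.011), of which that of SRSF5 was not called from the replicate 2 libraries alone (-0.097, adjusted p = 0.111). SRSF1 fell by -0.054 (SE 0.016, adjusted p = 0.00645), but without shZNF598 10 h replicate 1 the slope was -0.041 with an adjusted p of 0.0707, and from either replicate series alone the adjusted p was 0.0889 or 0.101. SRSF9 had 37.4 and 37.8 CPM at 0 h and 57.6 and 64.7 at 10 h, a slope of 0.076 (SE 0.012, adjusted p = 6.96e-06). Without a scaling factor this rise was 0.015 (adjusted p = 0.269) and so did not pass the test.

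Whether the loss of ZNF598 changed these slopes was tested as the difference between the arms. None of the 10 passed the test, where 0.116% of all tested transcripts did. At an unadjusted p under 0.05 there was 1 (SRSF9), and the DESeq2 Wald test also gave 0 of 10. For SRSF9 the slopes differed by -0.049 (SE 0.017, adjusted p = 0.518), and for SRSF7 by -0.049 (SE 0.027, adjusted p = 0.987). The other 8 lay between -0.036 (SRSF3, SE 0.031) and 0.028 (SRSF5, SE 0.04).

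Levels were then compared between the hairpins at each chase time, as log2 of shZNF598 over shControl. At 0 h none of the 10 passed the test, where 0.407% of all tested transcripts did, and 1 (SRSF4, -0.26, SE 0.11, adjusted p = 0.412) had an unadjusted p under 0.05. DESeq2 also gave 0. None passed at 2 h (0.746% of all transcripts) or at 4 h (1.4%), with 1 each at an unadjusted p under 0.05. DESeq2 gave 0 at 2 h and 1, SRSF7, at 4 h. At 6 h SRSF7 alone passed (2.29% of all), and at 10 h SRSF7 and SRSF9 were lower and SRSF5 was higher (3.23% of all). Over the mean of the 5 chase times, SRSF7, SRSF9 and SRSF4 were lower and SRSF5 was higher in shZNF598 cells, where 10.1% of all transcripts were lower and 12.3% higher. The median of the 10 genes was -0.090 and that of all transcripts 0.020.

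**Figure D3:**
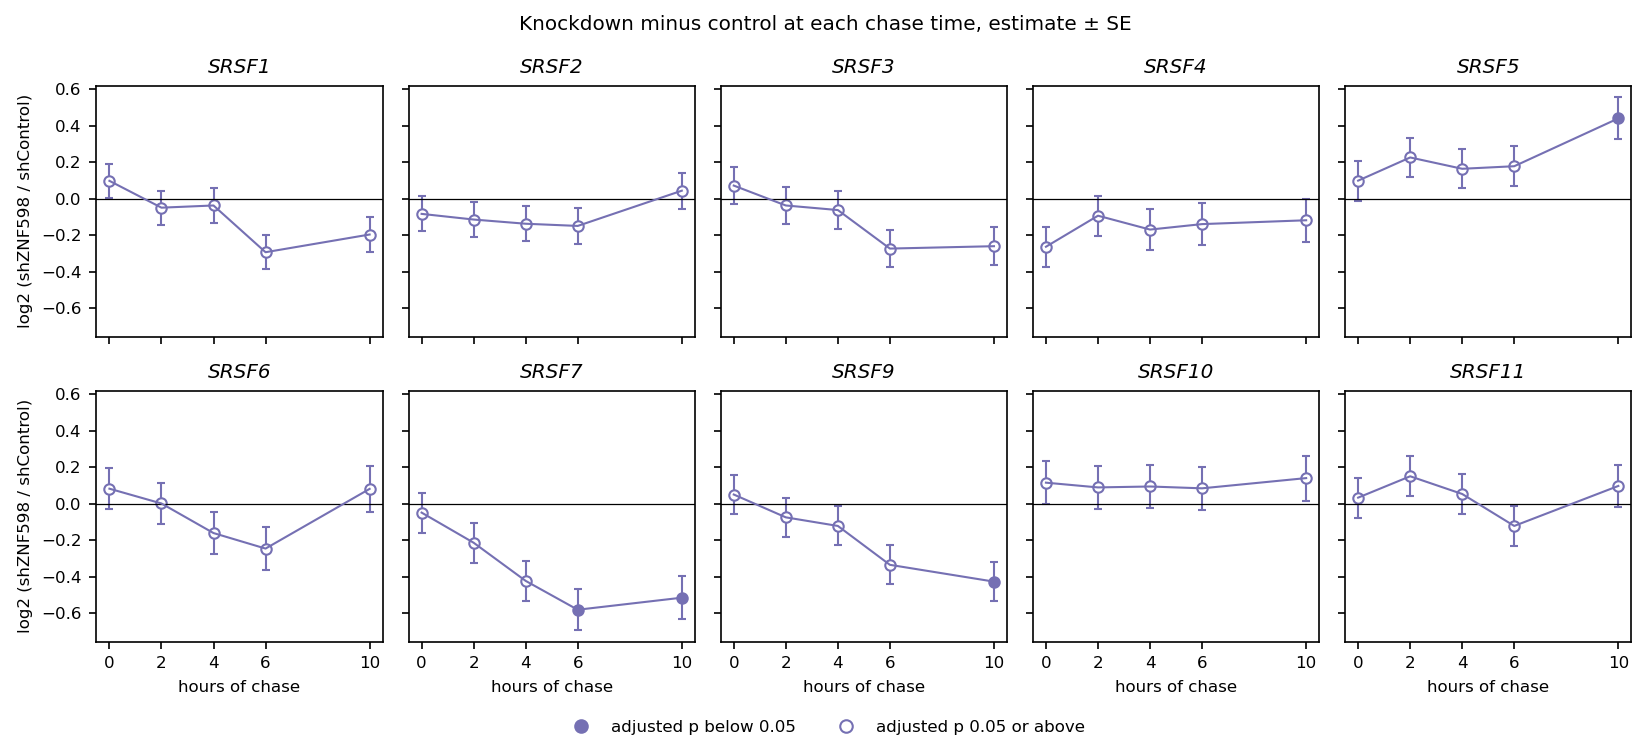
Log2 difference between shZNF598 and shControl (estimate with SE bars, edgeR) of each principal SRSF transcript at 0, 2, 4, 6 and 10 h of chase, with filled points for an adjusted p below 0.05. Filled points are seen for SRSF7 at 6 h (-0.58) and 10 h (-0.51), SRSF9 at 10 h (-0.43) and SRSF5 at 10 h (0.44).

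SRSF7 showed the largest difference. In shZNF598 cells it had 58.1 and 55.2 CPM at 0 h, 53.5 and 50.5 at 2 h, 36.5 and 41.1 at 4 h, 24.2 and 20.5 at 6 h, and 12.8 and 12.9 at 10 h. The arms overlapped at 0 h, and from 2 to 10 h both shZNF598 libraries were below both shControl libraries. The log2 difference was -0.05 (SE 0.11) at 0 h, -0.21 (SE 0.11) at 2 h, -0.42 (SE 0.11, adjusted p = 0.052) at 4 h, -0.58 (SE 0.11, adjusted p = 0.0034) at 6 h and -0.51 (SE 0.12, adjusted p = 0.012) at 10 h. Over all times it was -0.36 (SE 0.05, adjusted p = 1.31e-05), and it stayed between -0.380 and -0.330 when any library was left out. The call at 6 h was lost without shZNF598 6 h replicate 2 (-0.463, adjusted p = 0.0879). At 10 h it was lost without shControl replicate 2 (adjusted p = 0.27), shZNF598 replicate 1 (0.0568) or shZNF598 replicate 2 (0.0848).

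SRSF5 was higher in shZNF598 cells. It had 21.3 and 21.4 CPM at 0 h, 26.7 and 27.9 at 2 h, 24.6 and 30.6 at 4 h, 16.1 and 14.7 at 6 h, and 13.4 and 13.8 at 10 h, and the arms overlapped only at 4 h. The difference over all times was 0.22 (SE 0.05, adjusted p = 0.0021), 0.188 to 0.253 when any library was left out. At 10 h it was 0.44 (SE 0.12, adjusted p = 0.0317), and leaving out any of the 4 libraries of that time gave an adjusted p of 0.0659 to 0.266.

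SRSF9 had 38 and 32.8 CPM at 2 h, 46.4 and 43.7 at 4 h, and 41.2 and 51.5 at 6 h in shZNF598 cells. These were below both shControl libraries at 4, 6 and 10 h, and above them at 0 h. The difference over all times was -0.18 (SE 0.05, adjusted p = 0.00849), between -0.215 and -0.151 when any library was left out. At 10 h it was -0.43 (SE 0.11, adjusted p = 0.0257), and leaving out any of the 4 libraries of that time gave an adjusted p of 0.0518 to 0.272. SRSF4 was lower by -0.16 (SE 0.05, adjusted p = 0.0292) over all times, with 25.6 and 23.9 CPM at 0 h against 28.5 and 30.7 in shControl. The call for SRSF4 rests on single libraries: it was lost under 9 of the 20 fits that left 1 library out, with values of -0.186 to -0.129 over the 20.

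SRSF3 (-0.11, SE 0.05, adjusted p = 0.0843), SRSF1 (-0.09, SE 0.04, adjusted p = 0.11), SRSF2 (-0.09, SE 0.04, adjusted p = 0.155), SRSF6 (-0.05, SE 0.05), SRSF11 (0.04, SE 0.05) and SRSF10 (0.11, SE 0.05, adjusted p = 0.157) did not pass the test of the mean level. SRSF3 passed it without shControl 0 h replicate 1 (-0.144, adjusted p = 0.0152). That library had 138.8 CPM of SRSF3 against 169.4 in its replicate, and the shControl 0 h pair agreed least of all groups, with a Pearson r of 0.9719 across transcripts against 0.9868 to 0.9949 in the other pairs.

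Apparent half-lives were computed by the rule of the study, as the negative reciprocal of the slope of the log2 fold change against 0 h in the window with the best fit, without its spike-in correction, so that they are relative to the bulk of the library. A value counted as reliable with an R2 above 0.9 and a half-life above 0 and below 24 h. In the shControl and the shZNF598 arm, SRSF6 gave 3.86 h and 3.76 h, SRSF7 6.01 h and 4.57 h, and SRSF2 21.46 h and 17.62 h. SRSF4 was reliable only in shControl (3.9 h) and SRSF10 only in shZNF598 cells (6.77 h). The other arm missed the R2 limit narrowly in both genes. SRSF4 gave 4.15 h in shZNF598 cells (R2 0.899), and SRSF10 gave 6.79 h in shControl cells (R2 0.893). SRSF1, SRSF3, SRSF5, SRSF9 and SRSF11 gave no reliable value in either arm. The values for SRSF2 came from the 0-6 h window, and over 0-10 h shControl cells gave 12.5 h and shZNF598 cells 14.02 h, so that the order of the arms turned. A single replicate series gave 13.45 h or 11.74 h for SRSF2 in shControl, both over 0-10 h. For SRSF10 in shZNF598 cells it gave 18.93 h (0-4 h window) or 6.23 h (0-10 h window). From either replicate series alone the value for SRSF6 ranged from 3.61 to 3.97 h over both arms, with an R2 of 0.89 or more. That for SRSF7 in shControl was 5.88 h from replicate 1 (0-10 h window) and 27.85 h from replicate 2 (0-4 h window). Neither passed the reliability rule. In shZNF598 cells it was 4.57 h (0-10 h window) and 10.96 h (0-4 h window). These pairs thus differ in window. Over 0-10 h, the edgeR slopes of SRSF7 from replicates 1 and 2 were -0.185 and -0.178 in shControl cells. In shZNF598 cells they were -0.231 and -0.229.

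The other annotated transcripts of the SRSF genes mostly moved with the principal one. Of 110 rows, 109 passed the filter of a mean of 1 CPM, and 99 of these were not principal transcripts. In shControl cells 84 of the 99 fell relative to the bulk and 5 rose, and in shZNF598 cells 93 fell and 5 rose. The 5 that rose were the other rows of SRSF9. By type, 18 of 22 nonsense-mediated decay rows, 24 of 28 retained-intron rows, 29 of 32 further protein-coding rows and 13 of 17 rows without a defined coding sequence fell in shControl cells. Among all tested transcripts of these types, 39.4%, 32%, 45.8% and 38.9% fell. The slope difference between the arms was called by edgeR and by DESeq2 in none of the 109 rows (4 at an unadjusted p under 0.05), and likewise the 0 h level (5 at an unadjusted p under 0.05).

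**Figure D4:**
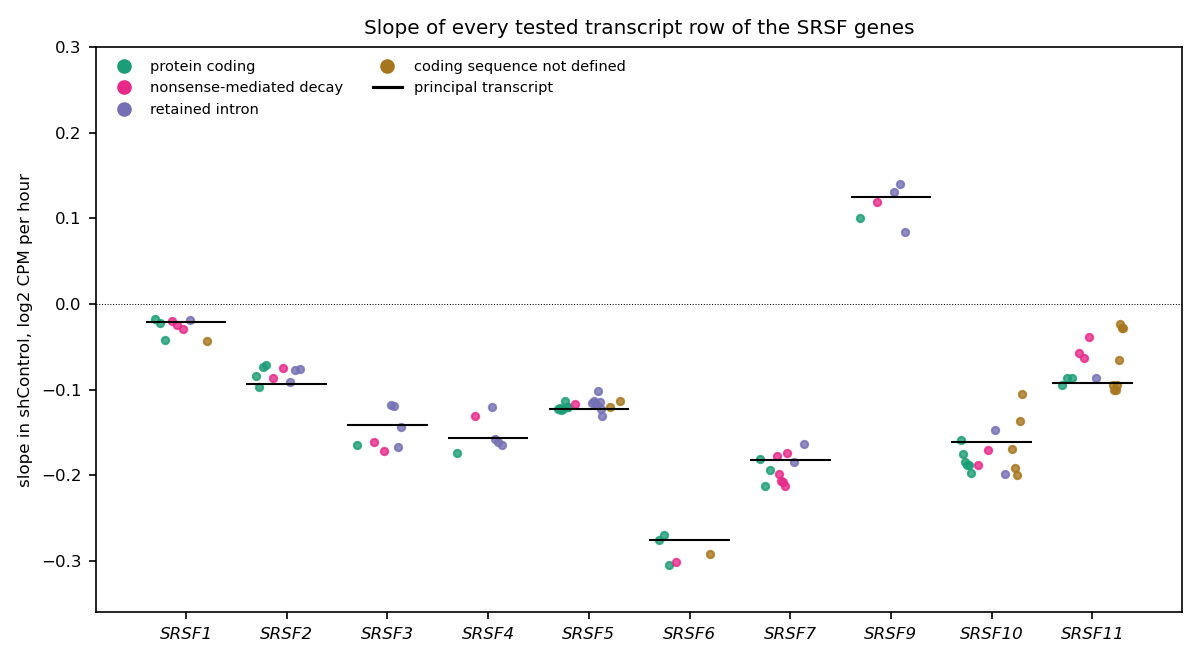
Slope in shControl (log2 CPM per hour) of all 109 tested transcript rows of the 10 SRSF genes, coloured by annotated type, with a black line at the principal transcript of each gene. Rows of a gene share reads and cluster near its line; 85 of the 99 other rows lie within 0.03 of it, and some SRSF11 rows lie above it.

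Of the 6 rows annotated for nonsense-mediated decay with the stops printed above, those of SRSF3, SRSF4, SRSF6, SRSF7 and SRSF9 had slopes within 0.03 of the principal transcript in both arms, and SRSF11-212 did not (-0.057 against -0.092 in shControl cells). SRSF6-202 had -0.301 (SE 0.030) in shControl cells against -0.276 for its principal transcript, SRSF3-203 -0.161 (SE 0.022) against -0.141, and SRSF7-204 -0.178 (SE 0.019) against -0.182. SRSF4-205, with 51.7% of its bases outside the principal transcript, had -0.131 (SE 0.029) against -0.156. SRSF9-206 had 0.119 (SE 0.012) against 0.125. At most 51.7% of the bases of these rows lay outside the principal transcript, and reads from shared exons were counted in both, so the slope of the poison exons themselves was not measured.

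Retained-intron rows hold more sequence outside the principal transcript. SRSF4-207 (76.2% outside the principal transcript) had -0.120 (SE 0.029), SRSF3-201 (69.9%) -0.167 (SE 0.020), SRSF10-213 (65.1%) -0.147 (SE 0.014) and SRSF5-210 (62.2%) -0.122 (SE 0.025) in shControl cells, whereas SRSF9-203 (72.4%) rose by 0.140 (SE 0.012). Exons of other genes cover 100% of SRSF9-203, and with the strand setting unknown its reads cannot be assigned to SRSF9 alone. In SRSF4, SRSF5 and SRSF11 a retained-intron row had the most counts of any row. The mean count per library was 1419.8 for SRSF4-207 against 1279.2 for the principal transcript, 1541.5 for SRSF5-207 against 1434.5, and 2840.4 for the row of SRSF11 (ENST00000484162.5) against 2795.7, in rows longer than the principal one.

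The rows of SRSF11 spanned slopes of -0.100 to -0.023 in shControl cells, and those of SRSF10 -0.200 to -0.105. The slope of SRSF11-212, its row with a printed stop, had an SE of 0.014 (adjusted p = 0.000758). SRSF11-207, which shares no exon base with the principal transcript and averaged 2.848 CPM, had -0.028 (SE 0.020, adjusted p = 0.21) in shControl and -0.014 (SE 0.020) in shZNF598 cells. Rows SRSF11-209 and SRSF11-210 had slopes of -0.028 and -0.023 in shControl cells. The difference between rows of a gene was not tested. In SRSF10 the row that shares no base with the principal transcript, SRSF10-216, averaged 1.132 CPM and had a slope of -0.105 (SE 0.049, adjusted p = 0.0589).

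The differences in mean level between the hairpins were also seen in other rows of a gene. These rows count shared reads, so they give no separate support to the call of the principal transcript. All 19 rows of SRSF5 were higher in shZNF598 cells (0.218 to 0.269), all 12 of SRSF7 were lower (-0.356 to -0.265), and 5 of 6 of SRSF9 were lower (-0.186 to -0.173). Of all tested transcripts, 10.1% were lower and 12.3% higher. In the remaining genes, 1 row of SRSF1 was lower, and in SRSF4 only the principal transcript was. In SRSF10 and SRSF11 1 row each was higher, the latter SRSF11-207 (0.208, adjusted p = 0.045).

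In sequence, the principal transcripts ranged from 1152 nt (SRSF9) to 7656 nt (SRSF10). SRSF9 also had the shortest 3′ UTR, 347 nt, at percentile 16.3 of the other genes, and SRSF10 the longest, 6795 nt, at percentile 96.0. The 3′ UTR was 3180 nt in SRSF6, 1534 nt in SRSF7, 667 nt in SRSF4 and 4487 nt in SRSF1, whose slopes were the steepest, the next, the fourth and the flattest of the 9 that were below 0. The motif ATTTA, the core of AU-rich elements, occurred on the transcript strand in the 3′ UTR of all 10 genes, once in SRSF4, SRSF5 and SRSF9 and up to 25 times in SRSF10, and in 74.5% of the other genes. The annotation lists 5 pseudogenes named after SRSF3, 2 after SRSF6 and 1 each after SRSF1, SRSF2, SRSF9 and SRSF10. Reads that match a gene and its copy equally well were not counted, and the levels of these genes are uncertain to that extent.

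Among other genes of the pathway, the kinases and the importer of SR proteins fell with the SRSF transcripts. All 7 (CLK1, CLK2, CLK3, CLK4, SRPK1, SRPK2 and TNPO3) fell in shControl cells, where 40.8% of all transcripts did, with a median slope of -0.113, and 6 fell in shZNF598 cells (38.5% of all). Over 0-4 h 4 of the 7 fell in shControl cells, and 3 and 2 from a single replicate series. Of 14 SR-like and SR-related proteins, 12 fell and 1 rose in shControl cells (median -0.107), and 12 fell and 2 rose in shZNF598 cells. Of 17 hnRNP genes, whose proteins often oppose SR proteins in splice site choice, 4 fell and 7 rose in shControl cells, with a median of 0.023, and 4 fell and 6 rose in shZNF598 cells. Without a scaling factor 10 of the 17 fell in shControl cells. The slope difference and the 0 h level were called by edgeR and by DESeq2 in none of these 38 genes (3 each at an unadjusted p under 0.05). In mean level, 1 of the 7 kinases and importer genes was lower and 3 were higher in shZNF598 cells, 2 and 2 of the 14, and 2 and 1 of the 17, where 10.1% of all transcripts were lower and 12.3% higher.

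The genes outside the family whose log2 CPM over the 20 libraries followed the mean of the 10 SRSF genes most closely, of 5452 compared, were GRSF1 (Pearson r = 0.9939), DDX24 (0.9938) and a transcript without a name in the annotation used (ENST00000330836.9, 0.9929). Their slopes in shControl cells were -0.118, -0.097 and -0.100. The 20 values behind each r share the chase times and the scaling of the libraries.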

How the data were processed

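BRIC-Seq was performed by the authors in HEK293T cells with 2 hairpins, and 22 libraries were deposited as raw read counts per transcript. As the labels and methods give it, RNA was ribosomal-depleted, libraries were made with a stranded total RNA kit and sequenced single-end, and reads were trimmed with fastp and aligned with STAR 2.7.0a (CASAVA 1.8 upstream) to hg38 with GENCODE release 32, allowing 1 mismatch and 1 locus, before the authors counted them with featureCounts. The transcript length in the files is in codons. The strand setting and the treatment of shared reads in counting are not given in the sources used here. Since no spike-in entered the scaling, slopes are relative to the bulk and no absolute half-life is given.

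Identifiers were named with GENCODE release 44 (92.2% matched with version, 98.4% in all), and sequences were read from GRCh38. The tests used edgeR 4.0.16 (with limma 3.58.1, R 4.3.3) and TMM scaling, on the 79513 transcripts whose CPM averaged 1 or more in the 20 libraries of the 0-10 h chase. A model with shRNA and hours nested in shRNA gave slopes, and a model with 1 mean per group gave levels, both by the quasi-likelihood test over all kept transcripts with Benjamini-Hochberg adjustment and a threshold of 0.05. SEs were taken as the size of the log2 change over the root of its F statistic. CPM levels of 0-10 h were scaled by TMM over those 20 libraries, and those of 24 h by TMM over all 22. Half-lives used DESeq2 1.42.0. The functions were tested on simulated counts.

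The members, the gene lists and the rule for named genes were chosen with earlier results of these data known. Named were all 10 principal transcripts, ZNF598, per gene and type the most counted row, the row with the least shared sequence, genes of the lists past the slope difference or 0 h test, and the 3 genes most like the family. SRSF9-202, SRSF11-209 and SRSF11-210, and the 2, 4, 6 and 10 h contrasts, were added after their values were seen. Alternatives changed the scaling, the filter, the test, the chase or half-life window, the isoform or the set of libraries, or added the replicate as a block. The 2 libraries of each group were not duplicates (chi-square 2.31 to 18.81 per degree of freedom). Members rested on 416 to 22206 counts per library of 0-10 h.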

Additional observations from a re-analysis of the deposited data

How the results depend on the processing

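With 2 libraries per group, single chase times rest on few values, and slopes assume a straight line that several SRSF courses do not follow. Depth was not limiting for the principal transcripts, but spike-ins were not used, so a slope above or below 0 depends on the scaling. Over 0-4 h, 2 members fell in shControl cells and 4 in shZNF598 cells, against 8 and 9 over 0-10 h. With the 24 h libraries added, 4 fell in each arm and 0 rose. Over 0-6 h, 2 rose in shControl cells (SRSF9 and SRSF1). The slope of SRSF5 changed sign over 0-4 h (0.065 in shControl, 0.091 in shZNF598) and over 0-24 h (0.022 and 0.006). That of SRSF1 changed sign in shControl over 0-6 h (0.043) and 0-4 h (0.056, adjusted p = 0.0508), and in shZNF598 over 0-4 h (0.031). For SRSF9 the sign changed over 0-24 h in shZNF598 (-0.001). The cause was not tested. Among the 79513 transcripts tested, the slope difference was called in 92 (0.116%). It was called in 506 with DESeq2, 55 with upper-quartile scaling and 35 without a scaling factor. Other sets of rows gave 46 of 183249 (0.0251%) without a filter and 10 of 15035 (0.0665%) with 1 row per gene. Without a scaling factor, 0 members rose in shZNF598 cells, and the median slope of all transcripts moved from -0.018 to -0.085 in shControl and from -0.014 to -0.075 in shZNF598 cells. The share of called transcripts that rose was then 22.5% in shZNF598 cells, against 46.0%.

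The replicate numbers of the arms were not taken as pairs, since the r of their deviations was above 0.1 at 2, 4 and 6 h (0.131, 0.366 and 0.309) but not at 0 and 10 h (-0.008 and -0.23). With the replicate block, the members that fell stayed at 8 and 9 and the slope difference stayed at 0, and 1 more call (SRSF7 at 4 h, -0.422, adjusted p = 0.0411) was made. The 4 h level was called in 1 member also without a scaling factor, with 1 row per gene and with DESeq2, and the 10 h level in 1 with the rows of highest count per kb, against 3. When 1 library was left out, the mean level was lower in 2 to 4 members, the 4 h level was called in 0 to 1, the 6 h level in 1 to 2 and the 10 h level in 0 to 3, and members that fell were 8 in shControl and 8 to 9 in shZNF598 cells. The slope difference and the 0 h level were called in 0 members under every alternative run, edgeR and DESeq2 included. With only 1 library per group, level tests had no residual degrees of freedom and could not be fitted.

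Reliable half-lives numbered 8 as reported, 4 over a fixed 0-4 h window and 3 without replicate 1. The SR kinase and importer genes that fell in shControl cells were 7 as reported, 3 and 2 without replicate 1 and 2, 4 over 0-4 h, 1 over 0-24 h and 4 over 2-10 h, and 5 to 7 when 1 library was left out. For SR-related proteins the count was 12, against 7 over 0-4 h and 3 over 0-24 h. For hnRNP genes it was 4, against 10 without a scaling factor, 7 with the filter at 5 CPM and 2 over 0-24 h.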

Other observations

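The 24 h libraries, 1 per hairpin and with 21220829 and 40157613 total counts, had no replicate. Among the slope and level fits, they entered only the 0-24 h slope window. For the half-lives, they entered the 0-24 h window and the DESeq2 scaling and spread, which were estimated over all 22 libraries. Several SRSF transcripts stood higher at 24 h than at 10 h. The 24 h levels were scaled over all 22 libraries and those of 0-10 h over the 20, so the folds below mix both scalings. SRSF5 was at 38.2 CPM in shControl and 32.1 in shZNF598 cells, 3.82-fold and 2.36-fold its 10 h mean and above all of its earlier libraries. SRSF4 (24.5 and 19.2 CPM, 2.15-fold and 1.83-fold) and SRSF6 (23.0 and 26.3 CPM, 2.04-fold and 2.21-fold) were higher as well, without reaching their 0 h levels. SRSF9, which had risen up to 10 h, was at 31.6 and 28.3 CPM, 0.385-fold and 0.463-fold its 10 h mean. SRSF1 (103.9 and 103.7 CPM) was lower than at any earlier time. SRSF7 was at 21.9 CPM in shControl and 25.1 in shZNF598 cells, 1.19-fold and 1.95-fold its 10 h mean. The order of its arms was thus opposite to that from 2 to 10 h, on 1 library each.

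Among the genes around the SR proteins, the mean level of SRPK1, a cytoplasmic SR protein kinase, was lower in shZNF598 cells (-0.32, SE 0.05, edgeR, adjusted p = 1.83e-05), while CLK1 (0.20, SE 0.06, adjusted p = 0.0161), CLK2 (0.21, SE 0.06, adjusted p = 0.0102) and CLK3 (0.25, SE 0.06, adjusted p = 0.00676), which are nuclear kinases, were higher. CLK4 (0.05, SE 0.09) and SRPK2 (-0.03, SE 0.05) did not pass the test. SRRM2, a scaffold of nuclear speckles, was lower by -0.72 (SE 0.14, adjusted p = 0.000511), TRA2A, a splicing activator, by -0.16 (SE 0.05, adjusted p = 0.0279), and PNN (0.31, SE 0.06, adjusted p = 0.000471) and ACIN1 (0.16, SE 0.04, adjusted p = 0.012) were higher. These genes were named after their values were seen.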
